A study of Mus musculus with 9 samples.

Results

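The genes described here are 59 genes of the cell cycle and of DNA replication, read from a table of ribosome footprint counts in mouse striatal cells. They were chosen by symbol from a list of genes with these known functions, drawn up with earlier results of these data known, and all 59 were found among the 36410 rows of the table. All 59 also passed the filter on low counts, which left 12678 genes for testing. By known function 38 of them belong to the G1/S transition and DNA replication and 21 to G2 and mitosis (G2/M).

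The cells were the immortalized knock-in striatal lines STHdhQ7/Q7 (control), STHdhQ7/Q111 (HD-het) and STHdhQ111/Q111 (HD-homo), labelled as strain C57/BL6, with 3 libraries each. The control line carries huntingtin alleles with 7 glutamines, the HD-het line has an allele with 7 and another with 111, and the HD-homo line has alleles with 111 glutamines only. All cells were exposed to cycloheximide for 10 min, which halts elongating ribosomes, and RNA fragments of 26 to 32 nt that ribosomes had shielded from nuclease were counted per gene. Each genotype was represented by a single line, so genotype and line cannot be told apart, and lines of this kind proliferate because they carry a viral large T antigen, which binds the retinoblastoma protein family.

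A dividing cell licenses its replication origins in G1, when ORC, CDC6 and CDT1 load the MCM2-7 helicase onto DNA, and it fires them in S phase. D-type cyclins with CDK4 or CDK6 phosphorylate the retinoblastoma protein, which frees E2F factors to drive the genes of S phase. Cyclin B with CDK1 then starts mitosis, and the spindle checkpoint holds it until every chromosome is attached.

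The library totals ran from 22504543 to 41888701 counts. A level is given as CPM, which is the count per 1e6 counts of a library after scaling for composition. A count of 3, the limit that a count of 0 allows, equals 0.0716 to 0.133 per 1e6 counts before that scaling. These limits cover counting error only. Huntingtin itself (Htt) lay at 28.1, 30.0 and 28.1 CPM in control, 19.4, 20.6 and 20.9 in HD-het, and 5.79, 7.69 and 6.39 in HD-homo cells. Of the 9 markers of striatal projection neurons, 4 were at or under the count limit in every library, Drd1 and Drd2 among them. Another 2, Foxp1 and Ppp1r1b, were above 1 CPM in every library. Their means in control, HD-het and HD-homo were 33.5, 43.1 and 56.9 CPM (Foxp1) and 12, 5.18 and 10.5 CPM (Ppp1r1b). The summed level of the 5 neural precursor markers was 9580 to 9850 CPM in control, 9010 to 9840 in the HD-het and 5990 to 6530 in the HD-homo line, most of it vimentin. The markers of this list did not move as 1 group, since in HD-het cells the means of Nes (400 to 1090 CPM), Pax6 (17.3 to 24.8) and Fabp7 (1.12 to 22.3) were above control and those of Sox2 (51.2 to 33.9) and Vim (9230 to 8280) below. In HD-homo cells Nes (7.01), Sox2 (2.26), Pax6 (0.0759) and Vim (6200) were below control and Fabp7 (3.04) above. The summed level of 6 mesenchymal markers was 2610 to 4800, 16200 to 20500 and 5420 to 6770 CPM in control, HD-het and HD-homo. Most of it was Col1a1, with means of 3340, 16500 and 4570 CPM. In HD-homo cells this list did not move as 1 group. There the mean of Col3a1 (431 to 352 CPM) was below control and the other means above, with the widest gap in Col1a2 (24 to 1030). The part of these marker differences in the results below was not tested, and in bulk libraries fewer cells of a phase and fewer footprints per cell cannot be told apart. Footprint counts also carry no measure of mRNA level, so a change is one in footprints. Changes in mRNA level and in ribosomes per message cannot be told apart.

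The promoters of both classes are known for different sequence elements, and a few are shown because the genes are described by the same classes below. E2F factors bind elements close to TTTGGCGC. The cell cycle genes homology region (CHR), TTTGAA, is the element through which MuvB complexes hold mitotic genes silent until G2, often beside a CCAAT box, CCAAT. Sequences are from RefSeq on GRCm38.p6, read 5′ to 3′ on the strand of the gene, with the motif in capitals. The E2F examples are Mcm5 (chr8:75109346-75109373, plus strand), Mcm6 (chr1:128359798-128359825, minus strand), Cdk2 (chr10:128705174-128705201, minus strand) and, as the lone mitotic gene with a match, Cdk1 (chr10:69353026-69353053, minus strand). The CHR examples are Cdk1 (chr10:69352968-69352993, minus strand), Ccnb2 (chr9:70421706-70421731, minus strand), Mki67 (chr7:135716480-135716505, minus strand) and Top2a (chr11:99024353-99024378, minus strand). All lie outside and upstream of the annotated gene.
Mcm5 E2F: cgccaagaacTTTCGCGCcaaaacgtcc
Mcm6 E2F: ggcgtatgctTTTGGCGCgaaaagtgcg
Cdk2 E2F: accaggaactGCGGGAAAgttgtgcagc
Cdk1 E2F: ttccgctcccTTTCGCGCtctgcgctcc
Cdk1 CHR: gattggctccTTTGAAcgtctacgtg
Ccnb2 CHR: gggactagaaTTTGAAaataagactg
Mki67 CHR: agcgccagaaTTTGAAccgccgtttt
Top2a CHR: attggtccatTTTGAAgattctcccg

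RefSeq promoter windows, from 250 bases before to 50 after a start, were at hand for 45 of the 59 members, in 49 windows. The E2F letters searched were TTTGGCGC, TTTCCCGC, TTTGCCGC and TTTCGCGC, on both strands, so the run in Cdk2 is the opposite-strand reading of TTTCCCGC. The Mcm5 and Mcm6 matches each overlap another E2F match on the opposite strand. Mcm6 also holds an E2F match nearer the start, which is not shown. Each gene of the CHR examples holds a further CHR match nearer the start, which is not shown. An E2F match stood in 36.4% of the 33 G1/S and replication windows, in 6.25% of the 16 G2/M windows and in 2.27% of all 32851 windows. A CHR stood in 12.1%, 62.5% and 17.9% of the same sets. A CCAAT box stood in 63.6% of the G1/S and replication windows and in 87.5% of the G2/M windows, against 37.4% of all windows. A CHR together with a CCAAT box was found in 9.09%, 62.5% and 6.95%. A match is a run of letters and not a shown binding site, and a window without one says only that these letters are not in it. Members with no window, Ccnd1, Ccnd2, Rb1 and Gmnn among them, are not described at this level.

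**Figure D1:**
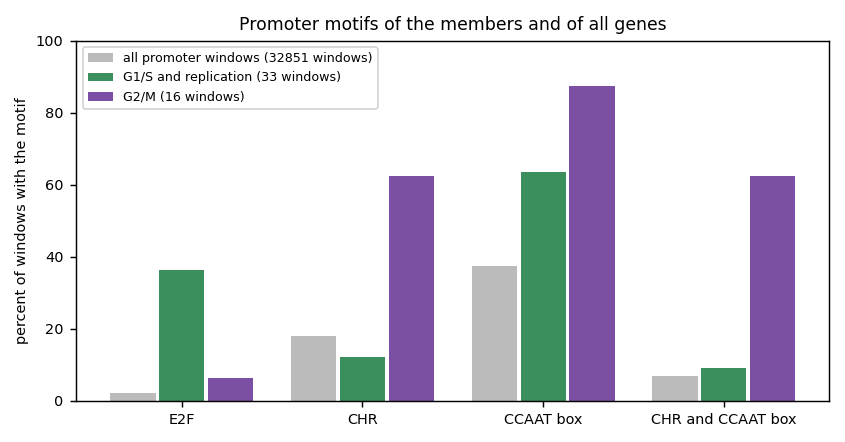
Share of promoter windows (y axis, percent) that hold an E2F, CHR or CCAAT match, or a CHR with a CCAAT box, for all 32851 windows (grey), 33 windows of G1/S and replication members (green) and 16 windows of G2/M members (purple). E2F matches are most frequent in the green bars at 36.4%, and CHR matches in the purple bars at 62.5%.

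HD-het cells had fewer footprints than control on most of these genes. The edgeR quasi-likelihood test, adjusted over all genes, called 48 of the 59 members different, 11 higher and 37 lower, where 60.1% of all 12678 genes were called, 31.0% higher and 29.1% lower. Of the 38 G1/S and replication members 6 rose, 27 fell and 5 did not pass the test, and their median log2 fold change was -0.38. Of the 21 G2/M members 5 rose, 10 fell and 6 did not pass, with a median of -0.20, while the median of all genes tested was 0.02. A change of at least 2-fold that passed the test was seen in 9 members (4 higher, 5 lower), and in 20.8% of all genes. The libraries of HD-het and control did not overlap for 52 of the 59 members, and for 71.2% of all genes. The count of G2/M members that rose was 3 in place of 5 when control replicate 1 or 3 was left out, and also without HD-het replicate 2, and the count that fell went from 10 to 6 without HD-het replicate 1.

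In HD-homo cells the list as a whole stayed closer to control. The same test called 27 members, 12 higher and 15 lower, against a background of 45.7% of all genes called, 23.3% higher and 22.3% lower. Of the G1/S and replication members 8 rose, 12 fell and 18 did not pass, with a median log2 fold change of -0.10. Of the G2/M members 4 rose, 3 fell and 14 did not pass, with a median of 0.02, beside 0.02 for all genes. At least 2-fold changes numbered 4 (2 higher, 2 lower), where 17.2% of all genes reached that size, and the libraries did not overlap for 34 members and for 55.5% of all genes. The share of members called was thus that of the background. The count of G1/S and replication members that rose was 5 without control replicate 1, and that of G2/M members that fell was 5 without HD-homo replicate 2. The median of the G1/S and replication members ran from -0.126 to -0.059 over the libraries left out, lowest without HD-homo replicate 3 and highest without control replicate 3. That of the G2/M members had no settled sign, at -0.066 without HD-homo replicate 2 and 0.0702 without HD-homo replicate 3, and was also below 0 without replicate 1 of control or of HD-homo.

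Set against each other, the mutant lines differed in 47 members, of which 34 were higher in HD-homo cells and 13 lower. The background was 67.5% of all genes called, 34.6% higher and 32.8% lower. The median log2 difference was 0.39 for the G1/S and replication members and 0.26 for the G2/M members, beside 0.02 for all genes, and without HD-homo replicate 1 the median of the G2/M members was 0.12. Of the members, 8 differed by at least 2-fold (4 higher, 4 lower), against 27.3% of all genes, and for 49 members the libraries did not overlap, against 69.5% of all genes. Any difference among the 3 lines was called for 54 members, and for 78.4% of all genes. The comparisons share libraries, so their values are set side by side below and not counted as separate support.

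The weight of each class in the libraries shows the same pattern without any fit. The G1/S and replication members took 0.651% ± 0.0328 of the footprints of control libraries (SD, n = 3), 0.447% ± 0.0151 in the HD-het and 0.590% ± 0.0162 in the HD-homo line. The G2/M members took 0.454% ± 0.00629, 0.400% ± 0.0124 and 0.471% ± 0.0558. The G2/M sum divided by the G1/S and replication sum was 0.713, 0.712 and 0.668 in the control libraries and 0.916, 0.883 and 0.886 in the HD-het libraries, so these groups did not overlap. In the HD-homo libraries it was 0.819, 0.893 and 0.688, a range that reaches into both other lines. Replicates 2 and 3 of HD-homo stood apart in the mitotic genes. Their G2/M members deviated from the line mean by a median of 0.11 and -0.16 on the log2 scale, and the 9 members with coding sequences over 3000 nt by 0.15 and -0.14.

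**Figure D2:**
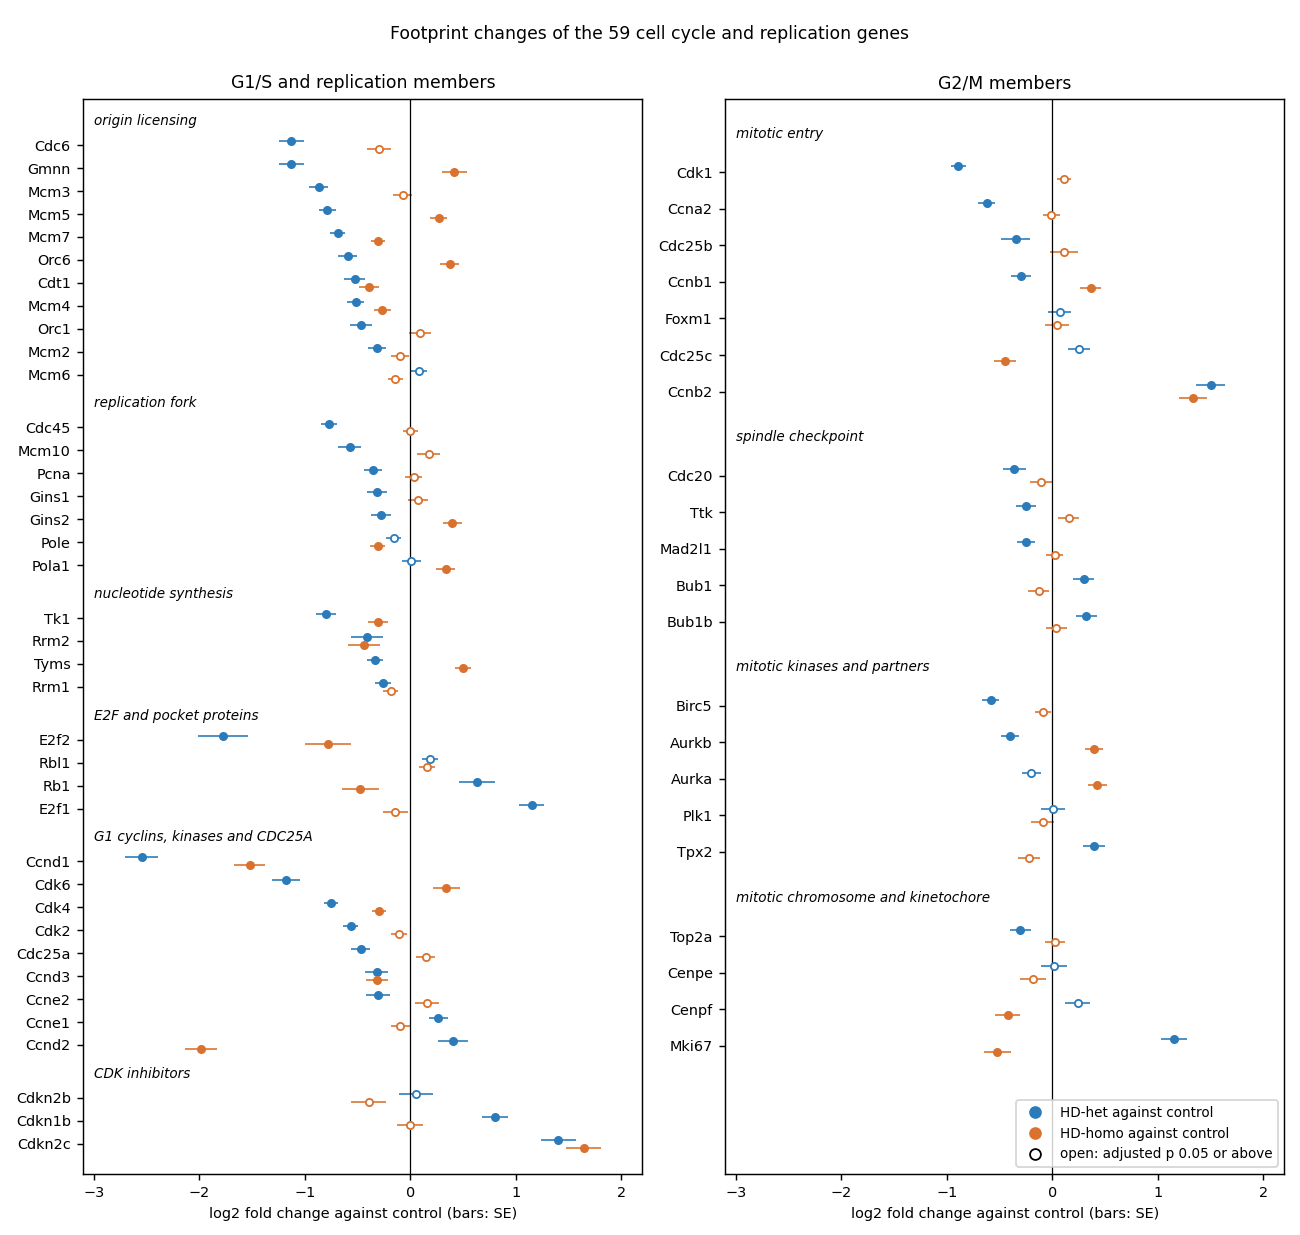
Fitted log2 fold change against control (x axis, bars are the SE) of all 59 members in HD-het (blue) and HD-homo (orange), by role, with the G1/S and replication members on the left and the G2/M members on the right. Filled points passed an adjusted p of 0.05. Most blue points lie left of 0, with 37 members lower, and Ccnb2, Cdkn2c, Mki67 and E2f1 lie farthest to the right.

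Origin licensing genes were lower in HD-het cells almost throughout. Of 11 such members 10 fell and 1 did not pass, with a median log2 fold change of -0.59, where 29.1% of all genes fell. Cdc6, the loader of the MCM helicase, lay at 62.4, 60.0 and 69.2 CPM in control, 26.3, 26.8 and 34.6 in the HD-het and 49.8, 49.6 and 56.7 in the HD-homo line. Its HD-het libraries were all below its HD-homo libraries and those below its control libraries. The fitted change was -1.13 ± 0.12 (SE) in HD-het (adjusted p = 1.22e-05, edgeR quasi-likelihood test) and -0.30 ± 0.12 in HD-homo, which did not pass (adjusted p = 0.055).

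Geminin (Gmnn, chr13:24751845-24761937) inhibits CDT1 so that an origin cannot be licensed again. It lay at 96.6, 94.3 and 101 CPM in control, 43.5, 43.4 and 46.4 in the HD-het and 105, 151 and 134 in the HD-homo line. The lines were fully separated, with HD-het lowest and HD-homo highest. The log2 fold change was -1.13 in the HD-het and 0.42 in the HD-homo line against control, and HD-homo exceeded HD-het by 1.55 ± 0.12 (adjusted p = 6.82e-07, edgeR quasi-likelihood test). Cdt1 fell in both mutant lines, by 0.53 and 0.39 on the log2 scale. Per length of coding sequence, the level of Cdt1 over that of Gmnn was 0.329 ± 0.0255 in control, 0.499 ± 0.0481 in the HD-het and 0.194 ± 0.0616 in the HD-homo line (SD, n = 3), and no libraries overlapped between lines. This ratio is taken within a library and does not depend on scaling, and the smallest two-sided exact permutation p for 3 against 3 libraries is 0.1.

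The 6 subunits of the MCM2-7 ring, which work in equal numbers, did not move together. Mcm3 (-0.87), Mcm5 (-0.79), Mcm7 (-0.69), Mcm4 (-0.52) and Mcm2 (-0.31) fell on the log2 scale in HD-het cells. Mcm6 did not pass the test there, at 311, 310 and 307 CPM in control and 324, 346 and 310 in HD-het. As a share of the summed footprint density of the 6 subunits (CPM per kb of coding sequence), Mcm6 held 15.2% ± 0.560 in control, 22.9% ± 1.28 in the HD-het and 14.9% ± 0.0694 in the HD-homo line. Mcm6 was thus the subunit with the highest density in HD-het cells and not in the other lines. Mcm3 held 20.8%, 16.3% and 21.5%, and Mcm5 12.7%, 10.5% and 16.6%, in the same order of lines. The highest subunit exceeded the lowest 1.89-fold in control, 2.18-fold in the HD-het and 1.90-fold in the HD-homo line.

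In HD-homo cells Mcm5 was raised, at 285, 249 and 302 CPM against 225, 232 and 237 in control and 133, 133 and 136 in HD-het. Its log2 fold change against control was 0.27 ± 0.08 (adjusted p = 0.0204, edgeR quasi-likelihood test) and did not pass when control replicate 1 (0.23) or 2 (0.27) was left out, nor without replicate 3 of HD-homo (0.21), at an adjusted p from 0.06 to 0.0947. The difference from HD-het was 1.06 ± 0.08. Mcm7 (-0.30) and Mcm4 (-0.27) were lower than control, the latter not without control replicate 3 (-0.24) or HD-homo replicate 1 (-0.21). The origin recognition subunit Orc6 fell by 0.59 in the HD-het and rose by 0.37 in the HD-homo line on the log2 scale, and Orc1 fell by 0.47 in HD-het with no call in HD-homo (0.09).

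**Figure D3:**
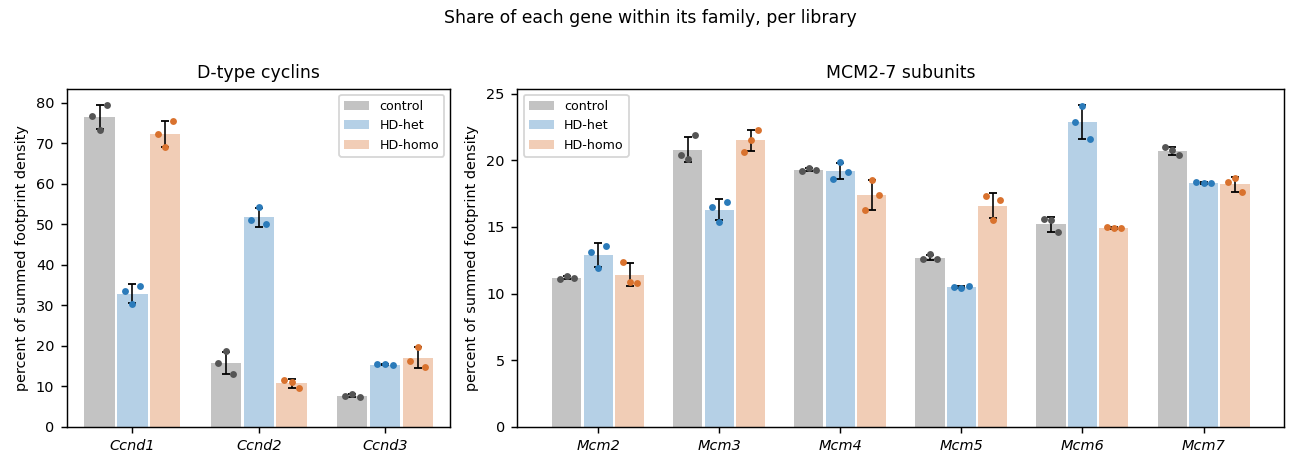
Share of each gene in the summed footprint density of its family (y axis, percent of CPM per kb of coding sequence) for the D-type cyclins (left) and the MCM2-7 subunits (right) in control (grey), HD-het (blue) and HD-homo (orange). Bars are means, points are the 3 libraries and error bars are the SD. In HD-het cells Ccnd2 holds 51.7% in place of 15.8%, and Mcm6 22.9% in place of 15.2%.

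Replication fork genes followed the licensing genes in HD-het cells, where 5 of 7 fell, against 29.1% of all genes. Cdc45, which joins MCM and GINS in the active helicase, lay at 73.1, 77.2 and 76.1 CPM in control, 43.3, 43.3 and 46.3 in the HD-het and 77.4, 71.7 and 77.3 in the HD-homo line. HD-het alone stood apart, with a log2 fold change of -0.77 ± 0.07 (adjusted p = 7.6e-06, edgeR quasi-likelihood test), and the value in HD-homo was 0.00. Mcm10 fell by 0.57, the sliding clamp Pcna by 0.36, and the GINS subunits Gins1 and Gins2 by 0.32 and 0.28 in HD-het cells. The catalytic polymerase subunits Pola1 (0.01) and Pole (-0.16) did not pass there. In HD-homo cells Gins2 (0.40) and Pola1 (0.34) rose and Pole (-0.31) fell. The call of Pole did not hold once trends in GC content and coding length were removed from each library (-0.05, adjusted p = 0.593), and in HD-het those of Gins1 (-0.23, adjusted p = 0.0569, edgeR quasi-likelihood test) and Gins2 (-0.09, adjusted p = 0.463) did not hold there either. Gins2 in HD-het also did not pass without control replicate 1 (-0.27) or 3 (-0.26) or HD-het replicate 3 (-0.23), nor Pola1 in HD-homo without control replicate 1 (0.31).

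All 4 genes of nucleotide synthesis fell in HD-het cells, where 29.1% of all genes fell. Thymidine kinase (Tk1) lay at 218, 224 and 213 CPM in control, 118, 114 and 143 in the HD-het and 187, 172 and 171 in the HD-homo line, and its log2 fold changes were -0.80 and -0.31, the latter not passing without control replicate 2 (-0.29) or HD-homo replicate 3 (-0.28). Thymidylate synthase (Tyms), the other source of thymidine nucleotides, lay at 63.3, 64.6 and 63.7 CPM in control, 46.2, 50.6 and 55.0 in the HD-het and 89.8, 88.8 and 92.0 in the HD-homo line. It fell by 0.34 in the HD-het and rose by 0.50 in the HD-homo line on the log2 scale, with no overlap between any lines. The ribonucleotide reductase subunits fell by 0.26 (Rrm1) and 0.41 (Rrm2) in HD-het. Rrm2 in HD-homo cells spread from 235 to 358 CPM, its log2 fold change was -0.44 ± 0.15, and this call was lost without any of 5 libraries, namely each control library and HD-homo replicates 1 and 2 (-0.46 to -0.33). The call of Rrm2 in HD-het was lost without any of the control libraries or HD-het replicate 1 or 2 (-0.44 to -0.35).

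Cyclin D1 showed the largest change of all members. Ccnd1 (chr7:144929931-144939831, a span that LTO1 overlaps) lay at 438, 405 and 531 CPM in control, 79.9, 77.4 and 77.3 in the HD-het and 187, 121 and 170 in the HD-homo line. The lines did not overlap, and HD-het was 5.85-fold below control (log2 fold change -2.55 ± 0.16, adjusted p = 3.15e-07, edgeR quasi-likelihood test). HD-homo was 2.88-fold below control (-1.53 ± 0.15) and 2.03-fold above HD-het.

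Cyclin D2 moved otherwise. Ccnd2 (chr6:127125162-127152188, a span that 9330179D12Rik overlaps) lay at 87.7, 101 and 85.9 CPM in control, 119, 136 and 109 in the HD-het and 29.0, 19.0 and 21 in the HD-homo line. It was 3.96-fold lower in HD-homo than in control (log2 fold change -1.98 ± 0.15, adjusted p = 1.15e-06, edgeR quasi-likelihood test) and 5.24-fold lower than in HD-het. The rise in HD-het cells was small, 0.41 ± 0.14 (adjusted p = 0.0298), and missed the threshold when control replicate 1 (0.36) or 3 (0.36) was left out, or replicate 1 (0.41) or 2 (0.30) of HD-het, and with total counts in place of composition factors (0.36). Cyclin D3 (Ccnd3) was lower by 0.32 in both lines, a call lost in HD-het without control replicate 3 (-0.27) or HD-het replicate 3 (-0.29), and in HD-homo without replicate 2 or 3 of control or of HD-homo (-0.34 to -0.25).

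Per length, the D-type cyclins together held 674 ± 70.0 CPM per kb in control, 269 ± 18.5 in the HD-het and 248 ± 47.5 in the HD-homo line (SD, n = 3). The mutant lines overlapped in this sum while control stood above both. Its makeup differed. Ccnd1 held 76.5% ± 3.05 of it in control, 32.9% ± 2.3 in the HD-het and 72.3% ± 3.31 in the HD-homo line, and Ccnd2 held 15.8% ± 2.73, 51.7% ± 2.25 and 10.7% ± 1.03. Ccnd2 was the leading D-type cyclin by density in all 3 HD-het libraries, and Ccnd1 in all libraries of the other lines. The share of Ccnd3 was 7.67% in control, 15.3% in the HD-het and 17.0% in the HD-homo line.

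The kinases that D-type cyclins activate were lower in HD-het cells. Cdk4 lay at 461, 462 and 473 CPM in control, 271, 273 and 284 in the HD-het and 380, 372 and 381 in the HD-homo line, a fully separated order with log2 fold changes of -0.75 and -0.30. Cdk6 lay at 30.1, 32.6 and 35.3 CPM in control, 14.5, 14.7 and 14.0 in the HD-het and 50.0, 34.9 and 38.9 in the HD-homo line. Its fall in HD-het was 2.26-fold (-1.18 ± 0.13, adjusted p = 1.9e-05, edgeR quasi-likelihood test), and HD-homo exceeded HD-het 2.86-fold. Against control the HD-homo libraries overlapped, and the call there (0.34, adjusted p = 0.0456) was lost without 7 of the 9 libraries, with values from 0.18 without HD-homo replicate 1 to 0.38 without HD-homo replicate 3. Per length, the level of Cdk4 was 15.4 ± 1.04, 20.6 ± 0.990 and 10.1 ± 1.71 times that of Cdk6 in control, HD-het and HD-homo.

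**Figure D4:**
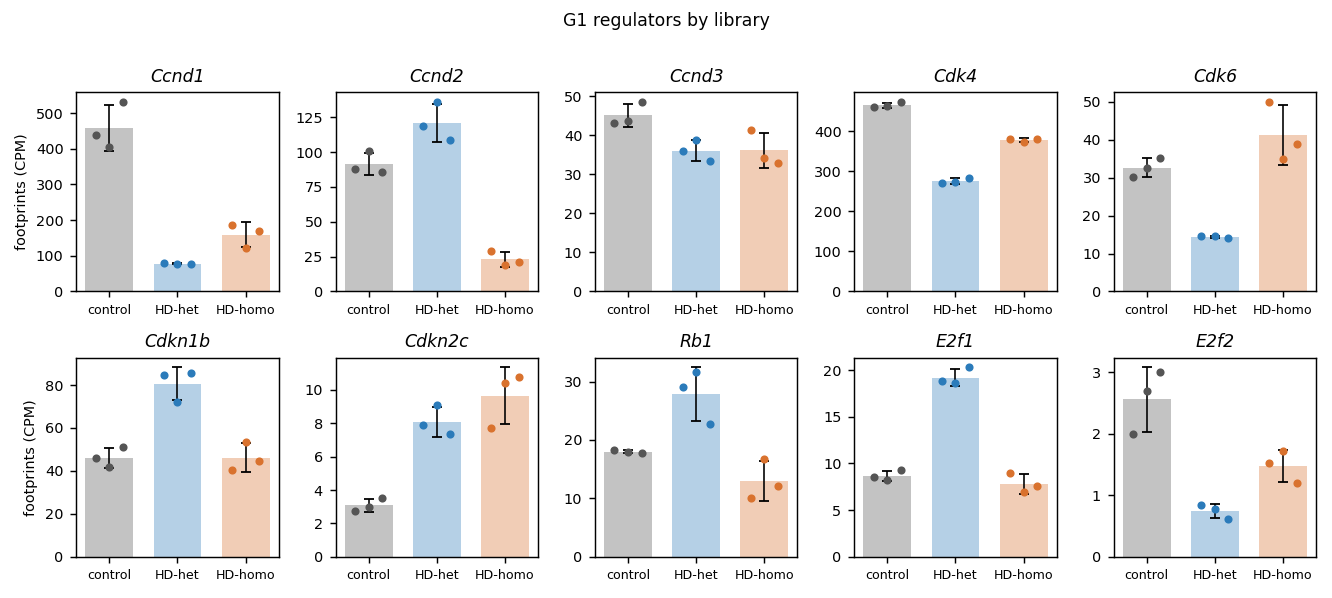
Footprint level (y axis, CPM, from 0 and on its own scale for each gene) of 10 G1 regulators in control (grey), HD-het (blue) and HD-homo (orange). Bars are means, points are the 3 libraries and error bars are the SD. Ccnd1 is highest in control, Ccnd2 lowest in HD-homo, and Cdk6 lowest and E2f1 highest in HD-het, while Cdkn2c is above control in both mutant lines.

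The E-type cyclins, which with CDK2 start S phase, moved little. Ccne1 lay at 32.7, 31.7 and 35.7 CPM in control, 38.9, 39.2 and 42.1 in the HD-het and 28.1, 32.6 and 33.0 in the HD-homo line. Ccne2 lay at 65.0, 65.1 and 71.6, at 49.0, 54.9 and 59.3, and at 66.3, 71.0 and 87.7 CPM. In HD-het Ccne1 rose by 0.27 and Ccne2 fell by 0.30 on the log2 scale, and neither passed in HD-homo. The call of Ccne1 was lost without any of the HD-het libraries or control replicate 1 or 2 (0.21 to 0.27), and that of Ccne2 without any of the control libraries or HD-het replicate 1 or 2 (-0.35 to -0.25). Within a library, the density of Ccne1 over that of Ccne2 was 0.491 ± 0.008 in control, 0.732 ± 0.0472 in the HD-het and 0.416 ± 0.0415 in the HD-homo line, with HD-het above every other library. Cdk2 lay at 77.6, 77.7 and 78.8 CPM in control, 51.9, 53.3 and 53.0 in the HD-het and 71.1, 69.1 and 77.3 in the HD-homo line, and fell by 0.57 in HD-het. The phosphatase Cdc25a, which activates CDK2, fell by 0.47 in HD-het cells and did not pass in HD-homo (0.14).

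Of the 3 CDK inhibitors, 2 rose in HD-het cells, where 31.0% of all genes rose. Cdkn2c (p18, an inhibitor of CDK4 and CDK6) lay at 2.75, 3.00 and 3.5 CPM in control, 7.90, 9.08 and 7.33 in the HD-het and 7.71, 10.4 and 10.8 in the HD-homo line. Both mutant lines were above control in every library and overlapped each other. The rise was 2.64-fold in HD-het (1.40 ± 0.17, adjusted p = 3.23e-05, edgeR quasi-likelihood test) and 3.12-fold in HD-homo (1.64 ± 0.17, adjusted p = 1.12e-05). Cdkn1b (p27, an inhibitor of cyclin E with CDK2) lay at 46.1, 41.7 and 51.0 CPM in control, 84.8, 72.0 and 85.4 in the HD-het and 40.3, 53.7 and 44.5 in the HD-homo line. It rose by 0.80 in HD-het on the log2 scale and stood at 0.00 in HD-homo. Cdkn2b (p15) lay at 32.4, 32.3 and 36.3, at 39.4, 30.7 and 34.6, and at 28.2, 30.0 and 18.3 CPM, and did not pass against control in either line.

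The E2F genes split in HD-het cells. E2f1 (chr2:154559400-154569892, overlapped by Necab3), an activator of S phase genes, lay at 8.59, 8.18 and 9.26 CPM in control, 18.8, 18.6 and 20.3 in the HD-het and 8.96, 6.92 and 7.54 in the HD-homo line. E2f2, of the same activator group, lay at 1.99, 2.69 and 3.01, at 0.835, 0.770 and 0.615, and at 1.53, 1.72 and 1.20 CPM. In HD-het E2f1 rose 2.22-fold (1.15 ± 0.12, adjusted p = 9.73e-06, edgeR quasi-likelihood test) and E2f2 fell 3.42-fold (-1.77 ± 0.24, adjusted p = 6.93e-05). In HD-homo E2f1 did not pass (-0.14) and E2f2 fell by 0.78. Per length, E2f1 over E2f2 was 3.59 ± 0.754 in control, 27.4 ± 5.81 in the HD-het and 5.55 ± 1.24 in the HD-homo line. In HD-het this ratio and the fall of E2f2 rest on 22, 28 and 13 counts of E2f2. The ratio ran from 23.2 to 34 over these libraries.

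The pocket protein genes differed too. Rb1 lay at 18.3, 18.0 and 17.8 CPM in control, 29.1, 31.7 and 22.7 in the HD-het and 10.1, 16.8 and 12.1 in the HD-homo line, with every HD-het library above and every HD-homo library below control. The rise in HD-het was 0.63 ± 0.17 and the fall in HD-homo 0.48 ± 0.18 on the log2 scale, and HD-homo was 2.15-fold below HD-het. The fall in HD-homo (adjusted p = 0.0447, edgeR quasi-likelihood test) was lost when any single control library was left out, without HD-het replicate 1 or without HD-homo replicate 1 or 3, with adjusted p up to 0.146. Rbl1 (p107), at 57.8, 63.2 and 57.2, at 65.7, 67.1 and 70.1, and at 68.3, 64.7 and 66.0 CPM, was above control in every mutant library but did not pass in any comparison, with a log2 fold change of 0.19 in HD-het (adjusted p = 0.0515, edgeR quasi-likelihood test). DESeq2 called it there (adjusted p = 0.0368).

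Among the genes of mitotic entry the cyclins and CDK1 moved in different directions. Cdk1 lay at 858, 841 and 844 CPM in control, 460, 455 and 456 in the HD-het and 903, 957 and 882 in the HD-homo line. The fall in HD-het was 1.85-fold (-0.89 ± 0.07, adjusted p = 1.58e-06, edgeR quasi-likelihood test), and the HD-homo value, 0.11, did not pass. Cyclin A2 (Ccna2), at 311, 315 and 291 CPM in control, 198, 203 and 196 in the HD-het and 331, 300 and 282 in the HD-homo line, fell by 0.62 in HD-het alone. Ccnb1 lay at 197, 205 and 181, at 150, 166 and 157, and at 281, 245 and 222 CPM. It fell by 0.30 in HD-het, a call lost without control replicate 2 (-0.26) or HD-het replicate 1 (-0.28), and rose by 0.36 in HD-homo.

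Cyclin B2 (Ccnb2, chr9:70407689-70421554, with no overlapping gene) went against Cdk1, Ccna2 and Ccnb1 in HD-het cells and rose in both mutant lines. It lay at 50.1, 54.6 and 54.9 CPM in control, 153, 155 and 144 in the HD-het and 144, 156 and 103 in the HD-homo line, so every mutant library exceeded every control library. The rise was 2.83-fold in HD-het (1.5 ± 0.13, adjusted p = 4.25e-06, edgeR quasi-likelihood test) and 2.52-fold in HD-homo (1.33 ± 0.13, adjusted p = 1.01e-05). Per length, Ccnb1 over Ccnb2 was 3.63, 3.47 and 3.04 in control, 0.909, 0.990 and 1.01 in the HD-het and 1.80, 1.46 and 2.01 in the HD-homo line, with no overlap. Both Ccnb2 and Cdk1 hold a CHR in the sequences shown above, and in HD-het the former rose while the latter fell. Any part of this element in these changes was not tested. Of the CDC25 phosphatases of this group, which activate CDK1, Cdc25b fell by 0.35 in HD-het, a call lost when any of the 6 libraries compared was left out (-0.39 to -0.32), and Cdc25c fell by 0.45 in HD-homo and lay at 0.26 in HD-het without passing. Foxm1, the transcription factor of mitotic genes, did not pass in any comparison, with log2 values from -0.02 to 0.07.

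**Figure D5:**
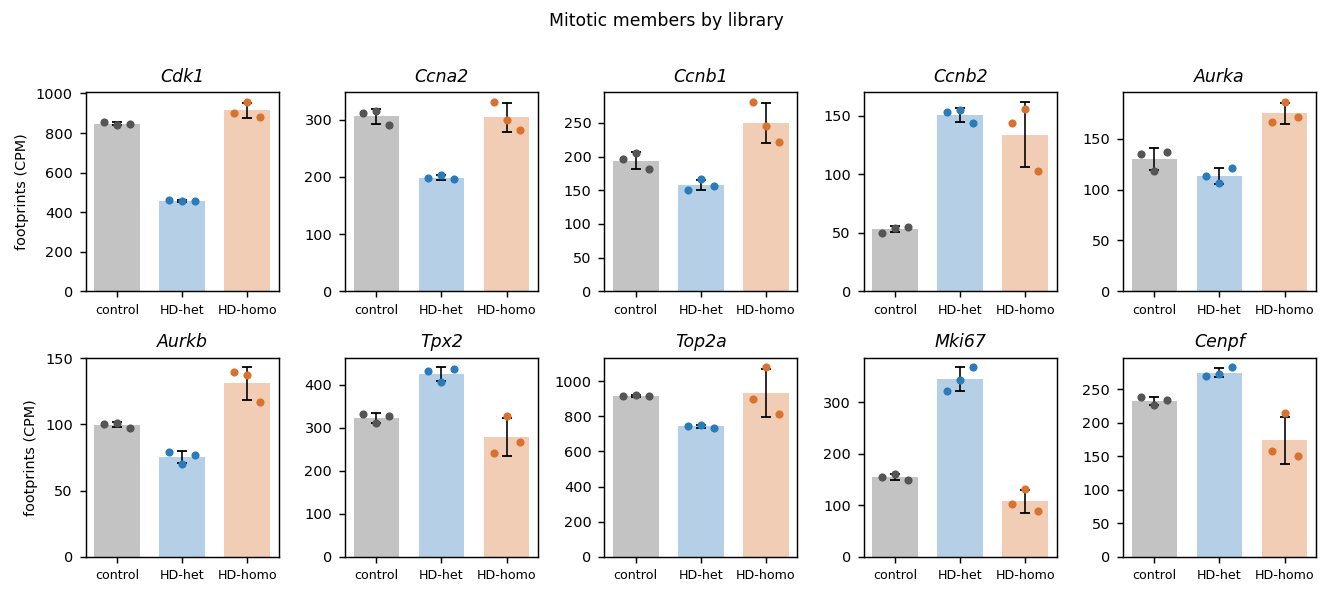
Footprint level (y axis, CPM, from 0 and on its own scale for each gene) of 10 mitotic members in control (grey), HD-het (blue) and HD-homo (orange). Bars are means, points are the 3 libraries and error bars are the SD. Cdk1 and Ccna2 are lowest in HD-het, Ccnb2 is above control in both mutant lines, and Mki67 is highest in the HD-het and lowest in the HD-homo line.

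All 5 genes of the spindle checkpoint and its target CDC20 passed in HD-het cells, in different directions and by small amounts. Of all genes, 60.1% were called in HD-het and 45.7% in HD-homo. The checkpoint kinases Bub1 (0.30) and the related Bub1b (0.32) rose on the log2 scale, and Cdc20 (-0.36), Mad2l1 (-0.25) and Ttk (-0.25) fell. The call of Bub1 was lost without control replicate 1 or 3 or HD-het replicate 2 (0.18 to 0.27), and that of Bub1b without the same libraries or HD-het replicate 1 (0.28 to 0.31). That of Mad2l1 was lost without control replicate 3 or HD-het replicate 1 (-0.22 and -0.20), and that of Ttk without control replicate 2 or 3, HD-het replicate 1 or 2 or HD-homo replicate 3 (-0.28 to -0.19). Offsets for trends in GC content and coding length also ended the calls of Bub1b (0.18, adjusted p = 0.118, edgeR quasi-likelihood test) and Mad2l1 (-0.17, adjusted p = 0.121), total counts those of Bub1 (0.25) and Bub1b (0.27), and DESeq2 that of Ttk (-0.24, adjusted p = 0.0566). None of the 5 passed in HD-homo cells by the edgeR quasi-likelihood test, with log2 values from -0.13 to 0.16 and adjusted p from 0.221 to 0.865, and 0 of them did so at an unadjusted p under 0.05 or with DESeq2. In HD-homo against HD-het, Ttk (0.41) was higher and Bub1 (-0.43) lower.

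Of the mitotic kinases and their partners, Birc5 (survivin) and Aurkb, which act together in the chromosomal passenger complex, both fell in HD-het cells, by 0.59 and 0.40. Aurkb lay at 100, 101 and 97.5 CPM in control, 79.2, 70.4 and 76.6 in the HD-het and 140, 137 and 117 in the HD-homo line, where it rose by 0.40 while Birc5 did not pass (-0.09). Aurka, the kinase of the spindle poles, lay at 135, 118 and 137, at 113, 106 and 121, and at 166, 186 and 171 CPM, and rose by 0.43 in HD-homo cells. Tpx2, which activates AURKA on the spindle, lay at 331, 310 and 328, at 431, 406 and 436, and at 241, 326 and 266 CPM, and rose by 0.39 in HD-het. Plk1 did not pass in any comparison.

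Mki67, which encodes the Ki-67 protein that coats mitotic chromosomes, had the largest difference between the mutant lines among the G2/M members. Mki67 (chr7:135689784-135716450, with no overlapping gene) lay at 155, 160 and 149 CPM in control, 322, 344 and 368 in the HD-het and 102, 132 and 89.3 in the HD-homo line, with the lines fully separated. It rose 2.23-fold in HD-het (1.15 ± 0.13, adjusted p = 1.76e-05, edgeR quasi-likelihood test), fell by 0.52 ± 0.13 in HD-homo (adjusted p = 0.0056), and was 3.20-fold lower in HD-homo than in HD-het. The kinetochore gene Cenpf lay at 239, 227 and 234, at 270, 273 and 283, and at 158, 214 and 150 CPM, and fell by 0.42 in HD-homo. Topoisomerase II alpha (Top2a) fell by 0.30 in HD-het, with 902, 1080 and 816 CPM in HD-homo, and the kinetochore motor Cenpe did not pass in any comparison.

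Mki67 and Cenpf have the longest coding sequences of the members, 9531 and 8991 nt. Across all genes, which are not independent replicates, the log2 fold change followed coding length with a Spearman rho of 0.179 in HD-het, -0.133 in HD-homo and -0.222 between the mutant lines, and across the 59 members with 0.232, -0.184 and -0.299. After trends in GC content and coding length were removed, the log2 value of Mki67 was 0.81 in HD-het (adjusted p = 1.69e-05, edgeR quasi-likelihood test) and -0.97 between the mutant lines (adjusted p = 2.87e-06). In HD-homo it was -0.16 and did not pass (adjusted p = 0.158), nor did Cenpf (-0.09, adjusted p = 0.412), whose call was also lost without HD-homo replicate 3 (-0.33). The same setting left Ccnd1 (-2.48), Ccnb2 (1.5) and E2f1 (1.14) in HD-het close to their values above.

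The 114 other cell cycle genes of a list drawn from general knowledge, of which 113 were tested, were counted in the same way. In HD-het cells 8 rose and 61 fell, in HD-homo cells 23 rose and 21 fell, and in HD-homo against HD-het 61 were higher and 12 lower. Of all genes, 31.0% rose and 29.1% fell in HD-het and 23.3% and 22.3% in HD-homo. Between the mutant lines 34.6% of all genes were higher and 32.8% lower. The share of the list called in either direction was thus near or below that of all genes. The same background holds for the shorter lists below. The counts against control depended on single libraries. Those that rose in HD-het numbered 4 without control replicate 1 or HD-het replicate 2 and 5 without control replicate 3 or HD-het replicate 1. Those that rose in HD-homo numbered 11, 13 and 14 without control replicates 1, 2 and 3, while those that fell there ranged from 17 without control replicate 3 to 30 without HD-homo replicate 2. Of the 35 other replication genes none rose and 27 fell in HD-het, and 26 were higher and none lower in HD-homo than in HD-het by the edgeR quasi-likelihood test. In the directions without a call, 0 genes had an unadjusted p under 0.05 and DESeq2 called 0. Of 55 other G2/M genes 4 rose and 23 fell in HD-het, with 23 higher and 8 lower between the mutant lines.

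By the rule for naming genes of that list, the largest falls in HD-het were those of the CDK inhibitor Cdkn1c (0.799 CPM in HD-het, 1.83 in control, -1.19 ± 0.26) and of separase, Espl1 (49.7 and 110 CPM, -1.15 ± 0.10). The largest rises were those of the repressor E2f6 (31.7 and 13.2 CPM, 1.26 ± 0.09) and of the CDK inhibitor Cdkn2d (17.6 and 10.3 CPM, 0.77 ± 0.13). In HD-homo the largest falls were those of Aspm (26.5 CPM against 51.5 in control, -0.96 ± 0.18) and of the ubiquitin ligase subunit Fbxw7 (6.61 and 12.5 CPM, -0.93 ± 0.13). The largest rises there were those of Cdkn1c (3.10 and 1.83 CPM, 0.75 ± 0.22) and of the pocket protein gene Rbl2 (15.8 and 10.1 CPM, 0.65 ± 0.16). Between the mutant lines Cdkn1c (1.94) was highest in HD-homo on the log2 scale, and E2f6 (-1.82) and Fbxw7 (-1.23) were lowest.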

How the data were processed

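Ribosome footprints were counted in 3 lines with 3 libraries each. The authors deposited raw counts of footprints per gene symbol, without normalization or pooling. The submitters' processing notes name cutadapt, Bowtie 1.0.1 and mm10. The counting program, annotation and use of strand are not given in the sources used here, so counts of the 27 members that another gene overlaps are uncertain to that extent. No other columns of samples were present.

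Each gene was tested in R 4.3.3 by edgeR 4.0.16 (with limma 3.58.1), using its quasi-likelihood F test with TMM factors, filterByExpr by group and group means as the only terms, in 1 fit of all 9 libraries. The Benjamini-Hochberg adjustment ran over 12678 genes, and an adjusted p-value under 0.05 was called. SE is the log2 fold change over the square root of F. The scripts were checked on simulated data. Replicates were described as independent rounds of culture, and p-values cover the spread between them. Library totals and their precision are given above.

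Members and lists were chosen with earlier results of these data known. Named with library values were the G1 regulators and members with a change of at least 2-fold or the largest changes of their class. A gene that the rule for the other cell cycle genes would name is not reported here. Alternatives were RLE factors, total counts, DESeq2 1.42.0, other filters, a block for the replicate number, a fit of 6 libraries, stricter thresholds and leaving out each library. Offsets for GC content and coding length (loess, span 0.5, longest coding sequence of GENCODE M21, values for 96.9% of genes) were added after seeing the data. Gene positions were taken from RefSeq, GRCm38.p6.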

Additional observations from a re-analysis of the deposited data

Results flagged for a closer look

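In 11 members the mutant lines moved in opposite directions from control, each past the threshold of the edgeR quasi-likelihood test in both and between the lines. The share of all genes that did so was not counted, so 11 cannot be set against a background. Of all genes, 60.1% were called in HD-het, 45.7% in HD-homo and 67.5% between the mutant lines. On the log2 scale HD-homo exceeded HD-het for Gmnn (1.55), Cdk6 (1.52), Mcm5 (1.06), Orc6 (0.97), Tyms (0.83), Aurkb (0.80), Gins2 (0.68) and Ccnb1 (0.66). HD-homo lay below HD-het for Ccnd2 (-2.39), Mki67 (-1.68) and Rb1 (-1.11). Gmnn, Orc6, Tyms and Aurkb kept both calls against control when any library was left out. Gins2 (0.40) kept its call in HD-homo and lost that in HD-het (-0.28), and Cdk6 (0.34), Mcm5 (0.27) and Rb1 (-0.48) lost that in HD-homo without 1 or more libraries. Ccnd2 (0.41) and Ccnb1 (-0.30) lost their calls in HD-het in that way, and Mki67 (-0.52) lost its call in HD-homo with offsets for GC content and coding length.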

How the results depend on the processing

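Of 122 calls of members over the comparisons none reversed its direction, and 89 were kept under every alternative other than the stricter thresholds. DESeq2 kept 121, RLE factors 119, a minimum of 10 counts in every library 117, no filter 119, the 6 libraries compared 117, total counts 113, offsets for GC content and coding length 108, and leaving out a library 106 to 119. The replicate numbers showed no clear pairing of the libraries, with correlations of deviations from -0.419 to 0.199 and 3 of 9 libraries closest to their own number. With 3 libraries per line this check cannot exclude that libraries of the same number were prepared together. With the replicate number as a block 121 of 122 calls were kept, all but that of Cdk6 in HD-homo against control (0.33, adjusted p = 0.0742, edgeR quasi-likelihood test). Calls lost without some library numbered 12 in HD-het and 9 in HD-homo against control and 6 between the mutant lines. Depth limits what a count near 0 can show, through the count limits given above. The causes were not tested.

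At 2-fold, called members numbered 9 in HD-het (G1/S and replication 2 higher and 5 lower, G2/M 2 and 0), 4 in HD-homo (1 and 2, 1 and 0) and 8 between the mutant lines (4 and 3, 0 and 1), and other cell cycle genes 1 higher and 9 lower, 0 and 0, and 10 and 4. At an adjusted p of 0.01 by the same edgeR test, G2/M members in HD-het numbered 3 higher and 4 lower and other genes 4 higher, and in HD-homo 16 members were called, with 4 G1/S and replication members higher, 6 lower and 11 other genes higher. With total counts 3 G2/M members and 5 other genes rose in HD-het, and medians were -0.44 (G1/S and replication) and -0.25 (G2/M) there and 0.47 (G1/S and replication) between the mutant lines. The G2/M median in HD-het was -0.23 with no filter and -0.17 with at least 10 counts. With offsets for GC content and coding length, 5 other genes rose in HD-het and 15 in HD-homo, 1 G2/M member fell in HD-homo, the G1/S and replication median in HD-het was -0.46 and the G2/M median lay 0.28 above it, against 0.18.

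Leaving out a library gave 3 to 7 G2/M members higher and 6 to 10 lower in HD-het, 4 to 10 other genes higher, medians from -0.44 to -0.34 (G1/S and replication) and -0.27 to -0.17 (G2/M), and 0.15 to 0.25 between these. In HD-homo it gave 5 to 8 G1/S and replication members higher, 2 to 5 G2/M members lower, 11 to 22 other genes higher and 17 to 30 lower, with medians from -0.126 to -0.059 (G1/S and replication) and -0.066 to 0.0702 (G2/M). Between the mutant lines the G2/M median ran from 0.12 to 0.32, and its distance from the other class from -0.29 to -0.035.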
